A study of Mus musculus with 8 samples.

Results

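Neutrophils store their antimicrobial proteins in granules that are made one after another as the cell matures in the bone marrow. Primary (azurophil) granules are filled at the promyelocyte stage with serine proteases and myeloperoxidase, whereas secondary (specific) granules are filled later, at the myelocyte and metamyelocyte stages, and circulating neutrophils have largely stopped transcribing either kind. The transcripts therefore mark stages of the lineage, and resting skeletal muscle is not a site of granulocyte formation.

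The 10 genes examined here were taken by name from the 47643 genes of the deposited table, and all 10 were found. Elane, Ctsg, Prtn3, Mpo, Cebpe and Ms4a3 belong to primary granules and granulocyte precursors and are called the 6 primary genes. The other 4, S100a8, S100a9, Ngp and Camp, belong to secondary granules and mature neutrophils and are called the secondary genes. The members were chosen by their TPM in Nup210+/+ replicate 2 against the other libraries, where the primary genes were high and the secondary genes less so. These levels are accordingly a description and were not tested.

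RNA came from quadriceps muscle of 4 Nup210+/+ and 4 Nup210-/- mice of strain C57BL/6, with 1 library per mouse. The Nup210-/- line is a constitutive knockout in which Cre driven from Hprt removed exon 2 of the nucleoporin gene Nup210, and the controls carry intact alleles. No treatment is named in the labels, and neither they nor the methods for these libraries give age or sex. Values are TPM (an estimate divided by transcript length and brought to a total of 1000000 in every library), so levels of different genes can be compared within a library. The number of reads behind a TPM is unknown, and a value of 0 is given as listed at 0.

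Some facts of the whole series bear on these genes. Nup210 mRNA was 8.81 to 11.93 TPM in the libraries labelled Nup210-/- and 5.71 to 10.11 TPM in those labelled Nup210+/+, so the transcript did not separate the genotypes, and directions rest on the labels. The 10 defining genes of skeletal muscle, among them Acta1 and Ckm, summed to 96689 TPM in Nup210+/+ replicate 2, inside the range of 92017 to 98002 TPM of the other Nup210+/+ libraries. That library stands apart in other ways. In 343 genes its TPM + 1 was at least 2 times that of the highest other library, against 25 to 54 such genes in each of the others. Its 4 Y-linked transcripts summed to 9.07 TPM, against at most 0.7 TPM elsewhere, while Xist was at 36.45 TPM. Nup210+/+ replicate 4 also differed, with Xist at 0.01 TPM against 36.45 to 49.37 TPM in the others. Every result below that rests on Nup210+/+ replicate 2 is given with and without it.

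The genes lie in known clusters (GENCODE M21 on GRCm38, the mm10 build). Prtn3 (chromosome 10, 79874476 to 79883174) and Elane (chromosome 10, 79886247 to 79888215) are neighbors on the plus strand, separated by 3073 bases. S100a8 (chromosome 3, 90668978 to 90670035) and S100a9 (chromosome 3, 90692632 to 90695721) lie 22597 bases apart on opposite strands, and Camp (109847379 to 109849617) and Ngp (110419747 to 110423012) share chromosome 9. Mpo (87793581 to 87804413) is on chromosome 11 and Ms4a3 (11629496 to 11640851) on chromosome 19. Ctsg (56099881 to 56102574) and Cebpe (54710360 to 54712174) are both on chromosome 14. Exons of Prtn3 overlap those of Plppr3, and exons of Mpo overlap those of Gm11505, in each case on the opposite strand. Libraries were directional, but whether RSEM used the strand is not stated, so reads of these overlaps may not have been told apart.

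The promoters of the 4 most abundant members, which encode the contents of primary granules, and of 2 members of the later group are shown because these genes were high in the same library. The sequences are from RefSeq (GRCm38.p6), and 9 of the 10 members had an entry there. Each is written 5′ to 3′ on the strand of the gene and ends at the start site or at the first base that GENCODE annotates as an exon, whichever comes first. Capitals mark every match, on either strand, to AGGAAG (the core bound by the ETS factor PU.1), TTNNGNAA (a relaxed C/EBP site), AACNGT (MYB), TGTGGT (RUNX) or TATAAA (the TATA box).
Elane, chr10:79886062-79886246, plus strand: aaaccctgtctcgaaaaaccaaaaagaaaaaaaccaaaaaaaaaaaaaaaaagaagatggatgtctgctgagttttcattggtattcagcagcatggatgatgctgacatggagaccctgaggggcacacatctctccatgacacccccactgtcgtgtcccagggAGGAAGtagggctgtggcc
Prtn3, chr10:79879417-79879613, plus strand: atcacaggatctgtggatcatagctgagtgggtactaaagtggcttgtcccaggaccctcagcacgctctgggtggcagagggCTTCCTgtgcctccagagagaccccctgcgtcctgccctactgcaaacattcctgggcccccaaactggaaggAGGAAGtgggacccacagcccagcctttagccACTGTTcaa
Ctsg, chr14:56102575-56102824, minus strand: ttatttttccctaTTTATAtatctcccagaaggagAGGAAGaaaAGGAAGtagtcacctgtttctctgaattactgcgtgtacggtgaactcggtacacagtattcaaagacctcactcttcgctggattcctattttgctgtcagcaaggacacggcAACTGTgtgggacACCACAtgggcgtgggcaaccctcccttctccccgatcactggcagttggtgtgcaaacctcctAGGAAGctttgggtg
Mpo, chr11:87793534-87793580, plus strand: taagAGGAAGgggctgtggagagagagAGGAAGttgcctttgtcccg
S100a9, chr3:90695722-90695971, minus strand: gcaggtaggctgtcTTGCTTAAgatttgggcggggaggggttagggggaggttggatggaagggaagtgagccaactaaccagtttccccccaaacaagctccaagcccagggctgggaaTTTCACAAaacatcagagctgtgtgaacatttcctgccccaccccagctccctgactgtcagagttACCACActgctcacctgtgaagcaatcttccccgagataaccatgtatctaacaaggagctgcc
Ngp, chr9:110419558-110419746, plus strand: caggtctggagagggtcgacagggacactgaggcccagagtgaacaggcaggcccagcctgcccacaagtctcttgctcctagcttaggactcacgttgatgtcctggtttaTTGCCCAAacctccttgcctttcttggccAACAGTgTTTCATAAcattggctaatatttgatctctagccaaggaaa

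PU.1, C/EBP factors and Myb are known as activators of primary granule genes in myeloid precursors. In the 250 bases before the start, AGGAAG or its complement was found in 7 of the 9 members with an entry, against 29.5% of 32851 mouse promoters. It was in 5 of 5 primary genes with an entry and in 2 of 4 secondary genes, S100a8 and Camp. The S100a9 and Ngp windows shown had none. TTNNGNAA was found in 4 members, of which Ms4a3 was the primary one, and in 36.8% of all promoters. AACNGT was in Mpo, Prtn3, Ctsg and Ngp and in 22.3% of all promoters, TGTGGT in Ctsg and S100a9 (14.0% of all) and TATAAA in Ctsg and S100a8 (12.4% of all). A match to such short letters is not a binding site, and nothing was measured on these promoters.

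Elane encodes neutrophil elastase, the serine protease of primary granules. It was at 116.69 TPM in Nup210+/+ replicate 2. In Nup210+/+ replicates 1, 3 and 4 it was at 0.53 TPM, listed at 0 and at 0.11 TPM, and in Nup210-/- replicates 1 to 4 it was at 0.21, 0.12, 0.13 and 0.41 TPM. One library was thus 220.2 times as high as the highest of the other 7, and those 7 overlapped between genotypes. Among all 47643 genes, Elane had the largest ratio of TPM + 1 in that library to the highest other.

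Ctsg encodes cathepsin G, a serine protease with chymotrypsin-like activity. It was at 105.06 TPM in Nup210+/+ replicate 2 and at 0.48, 0.22 and 0.2 TPM in Nup210+/+ replicates 1, 3 and 4. In Nup210-/- replicates 1 and 2 it was at 0.1 and 0.21 TPM, and in replicates 3 and 4 it was listed at 0. Again 1 library was far above the rest, by 219 times, and Ctsg ranked 2 of all genes by the ratio of TPM + 1.

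Prtn3 encodes proteinase 3, a protease closely related to elastase and its neighbor on chromosome 10. Its level was 84.47 TPM in Nup210+/+ replicate 2. In Nup210+/+ replicates 1 and 3 it was 0.32 and 0.29 TPM, in Nup210-/- replicates 1 and 4 it was 0.51 and 0.66 TPM, and in the remaining 3 libraries Prtn3 was listed at 0. The highest of the other 7 was a Nup210-/- library, 128 times below Nup210+/+ replicate 2. The gene on the far side of Elane, Cfd, which encodes complement factor D and is abundant in fat, begins 2638 bases beyond Elane. Cfd did not share the pattern, at 203.52 TPM in Nup210+/+ replicate 2 within a range of 110.04 to 378.36 TPM in the others. Plppr3, whose exons overlap Prtn3, was at 1.93 TPM there against at most 0.93 TPM. It had the largest ratio of 16 genomic neighbors of the 10 genes, and Nme6 the smallest. Of these 16, 5 were highest in that library, as were 18.4% of all genes above 0 TPM in any library.

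Mpo encodes myeloperoxidase, which makes hypochlorous acid in primary granules. It was at 49.2 TPM in Nup210+/+ replicate 2, at 0.79 TPM in Nup210+/+ replicate 1 and at 0.4 TPM in Nup210-/- replicate 4, and was listed at 0 in the other 5 libraries. Lpo, the neighboring peroxidase gene, was listed at 0 in all 8, and Epx, the peroxidase of eosinophil granules, had 0.16 TPM in Nup210+/+ replicate 2 alone.

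Ms4a3 encodes a membrane protein of granulocyte and monocyte progenitors, and Cebpe encodes C/EBP epsilon, the factor needed for the step from promyelocyte to myelocyte and for secondary granule genes. Ms4a3 was at 13.12 TPM in Nup210+/+ replicate 2, and each of the other 7 libraries listed it at 0. Cebpe was at 13.15 TPM there and at 0.08, 0.18, 0.1 and 0.18 TPM in Nup210-/- replicates 1, 3 and 4 and Nup210+/+ replicate 3, and was listed at 0 in 3 libraries. These genes were about as abundant as each other and lower than the granule enzymes in the same library.

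S100a8 and S100a9 encode the subunits of calprotectin, the main cytosolic protein of mature neutrophils, which binds calcium, zinc and manganese. S100a8 was at 8.03 TPM in Nup210+/+ replicate 2. It was at 0.55, 0.25 and 0.69 TPM in Nup210+/+ replicates 1, 3 and 4 and at 0.43, 1.18, 1.03 and 0.56 TPM in Nup210-/- replicates 1 to 4. S100a8 was thus present in all 8 libraries and 6.81 times as high in one as in the highest other, a smaller ratio than for the primary genes. S100a9 was at 7.98 TPM in Nup210+/+ replicate 2, at 0.51 and 1.17 TPM in Nup210+/+ replicates 1 and 3, listed at 0 in replicate 4, and at 0.2, 0.45, 0.97 and 0.52 TPM in Nup210-/- replicates 1 to 4. In Nup210+/+ replicate 2 the subunit transcripts stood at a ratio of 1.01, whereas in the other libraries with both above 0 the ratio of S100a8 to S100a9 ran from 0.214 to 2.62.

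Ngp and Camp encode neutrophilic granule protein and the cathelicidin precursor, which are related proteins of secondary granules. Ngp reached 1.56 TPM in Nup210+/+ replicate 2, and each of the other 7 libraries listed it at 0. Camp was at 0.41 TPM in that library and at 0.16 TPM in Nup210+/+ replicate 1, whereas the remaining 6 listed it at 0. Both were the lowest of the 10 genes in that library, and neither reached the mean of 0.5 TPM required for the genotype test.

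**Figure D1:**
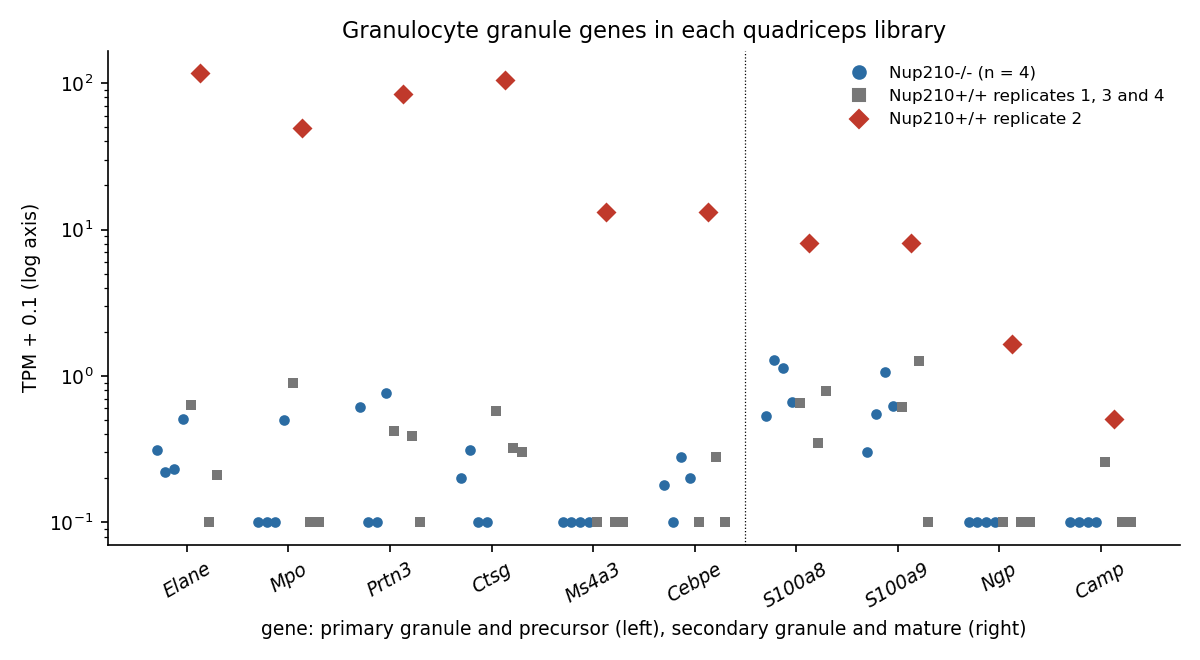
TPM + 0.1 on a log axis for the 10 genes, with 1 point per library, so that points at 0.1 are libraries in which the gene is listed at 0. The diamond, Nup210+/+ replicate 2, is above every other library for each gene, from 116.69 TPM for Elane to 0.41 TPM for Camp, and circles (Nup210-/-) and squares (other Nup210+/+) intermingle.

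All 10 genes were therefore highest in Nup210+/+ replicate 2, where 20.7% of the 14229 genes with a mean of at least 0.5 TPM were highest, and the excess was larger for the primary than for the secondary genes. The ratio of TPM + 1 to the highest other library was at least 10 for 6 of 6 primary and 0 of 4 secondary genes, and at least 2 for 6 and 3 of them, in a table in which 0.0336% and 0.72% of genes passed these minimums. The choice of the primary genes used this same comparison, so nothing is read from their count. In that library the primary genes ranked between 788 (Elane) and 5335 (Ms4a3) in abundance among all genes, S100a8 ranked 7108 and Camp 14885.

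The summed TPM of the 6 primary genes was 381.69 in Nup210+/+ replicate 2. It was 2.12, 0.69 and 0.31 in Nup210+/+ replicates 1, 3 and 4 and 0.9, 0.33, 0.31 and 1.57 in Nup210-/- replicates 1 to 4. The summed TPM of the 4 secondary genes was 17.98 in Nup210+/+ replicate 2, 1.22, 1.42 and 0.69 in replicates 1, 3 and 4, and 0.63, 1.63, 2.0 and 1.08 in Nup210-/- replicates 1 to 4. Both sums were higher in 1 library, and the other 7 overlapped between genotypes in both. The primary sum was 21.2 times the secondary sum in Nup210+/+ replicate 2, but 0.155 to 1.74 times in the 7 other libraries, with a median of 0.486. Without the most abundant gene of each group the ratio in Nup210+/+ replicate 2 was 26.6, and between geometric means of TPM + 1 it was 11.3, against 0.742 to 1.03 in the others.

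**Figure D2:**
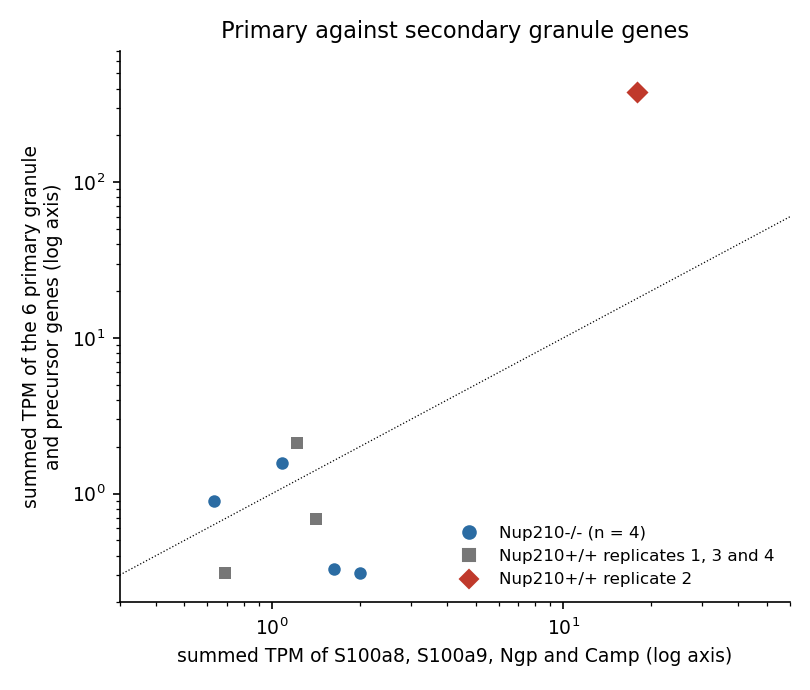
Summed TPM of the 6 primary genes against that of S100a8, S100a9, Ngp and Camp, both on log axes, with 1 point per library and a dotted line where the sums are equal. The other libraries lie around the line, between 0.31 and 2.12 TPM for the primary sum, and Nup210+/+ replicate 2 (diamond) lies far above it at 381.69 against 17.98 TPM.

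The make-up of the primary sum was compared as well. In Nup210+/+ replicate 2 Elane made up 30.6% of it, Ctsg 27.5%, Prtn3 22.1%, Mpo 12.9%, Cebpe 3.45% and Ms4a3 3.44%. Over the 7 other libraries together, whose sums add up to little, Prtn3 made up 28.6%, Elane 24.2%, Ctsg 19.4%, Mpo 19.1% and Cebpe 8.67%. The 4 enzymes led in both, although their order differed, and the error of the second set cannot be given because each value is near the lowest that the table reports.

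The other genes of the lineage were taken from lists. Counts of listed genes highest in Nup210+/+ replicate 2 are to be set against the share over all genes. It was 20.7% of genes with a mean of at least 0.5 TPM and 18.4% of genes above 0 TPM in any library. Of 18 further genes of primary granules and promyelocytes, 16 were highest in Nup210+/+ replicate 2, and their median ratio of TPM + 1 to the median of the 7 other libraries was 2.304, against 1.04 for all genes tested. Plac8, a small cysteine-rich protein of myeloid cells, was at 175.43 TPM against 1 to 5.81 TPM elsewhere. Nkg7, a granule membrane protein, was at 12.54 TPM against at most 1.89 TPM, and Prss57, the fourth serine protease of primary granules, at 6.47 TPM against at most 0.23 TPM. Lysosomal enzymes on the same list moved little, and Gaa, acid alpha-glucosidase, had the smallest ratio, at 1.05.

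Of 14 genes of early myeloid progenitors, 10 were highest in that library, with a median ratio of 1.79. The share over all genes with a mean of at least 0.5 TPM was 20.7%. Myb, the factor of dividing progenitors, was at 16.74 TPM against 0.03 to 0.25 TPM elsewhere, and Gfi1, a repressor that directs progenitors to the granulocyte fate, at 4.01 TPM against at most 0.21 TPM. Kit, the stem cell factor receptor, was at 4.45 TPM against at most 1.56 TPM. Other progenitor genes were not highest there. Cd34 was at 79.5 TPM against 49.73 to 100.15 TPM, Cebpa at 13.44 TPM against 8.27 to 20.71 TPM and Flt3 at 0.16 TPM against up to 0.17 TPM. Cd34 and Cebpa were thus well above 0 in libraries where Elane and Mpo were near 0, so their levels say little about progenitors here. Csf3r, the G-CSF receptor, had the smallest ratio of the list, at 0.938, with 0.21 TPM against 0.14 to 0.46 TPM.

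Genes of later stages were examined next. Of all genes above 0 TPM in any library, 18.4% were highest in Nup210+/+ replicate 2. Of 18 further genes of secondary granules 11 were highest in Nup210+/+ replicate 2, with a median ratio of 1.495, and 2 were listed at 0 everywhere. Ltf, lactoferrin, the defining protein of these granules, was at 0.49 TPM there and at 0.46 TPM in Nup210-/- replicate 1. On that list 3 genes were at least 2 times the highest other library in TPM + 1, against 0.72% of all genes. Pglyrp1, a peptidoglycan recognition protein, had the largest ratio, at 14.11 TPM against at most 1.08 TPM. The others were Slpi, a protease inhibitor, at 8.63 TPM against at most 0.46 TPM, and Cyba, a subunit of the NADPH oxidase, at 34.95 TPM against at most 14.3 TPM, and Arg2 had the smallest ratio. Of 25 genes of tertiary granules and mature neutrophils 10 were highest there, with a median ratio of 1.10, and 3 were listed at 0 everywhere. A mean of at least 0.5 TPM was reached by 7 of these 25 and by 8 of the 18 secondary granule genes. Where a gene is near 0 in every library, its ratio of TPM + 1 is near 1, which draws these medians toward 1. The median of 1.04 for all genes was taken over genes with that mean. On this second list 2 genes were at least 2 times the highest other library in TPM + 1. Among them was Ly6g, at 1.44 TPM and listed at 0 elsewhere. Mcemp1 was at 1.13 TPM against at most 0.07 TPM, and Alox5ap at 39.61 TPM against at most 21.1 TPM. Cxcr2, the chemokine receptor of mature neutrophils, was at 0.16 TPM against at most 0.13 TPM. Retnlg, which had the smallest ratio of the list, was listed at 0 in Nup210+/+ replicate 2.

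Factors that act in the granulocyte lineage varied. Of 13 such genes 7 were highest in Nup210+/+ replicate 2, against 20.7% of all genes with a mean of at least 0.5 TPM, and Myb had the largest ratio. Spi1, which encodes PU.1, was at 9.15 TPM against 1.37 to 4.02 TPM elsewhere. Cebpd, a C/EBP factor of later stages that muscle also expresses, had the smallest ratio, at 19.3 TPM against 18.61 to 36.04 TPM. Among 12 neutrophil attractants and growth factors Ppbp had the largest ratio, 1.47, and Cxcl1 the smallest, 0.766. Only Cxcl2 was highest in that library, at 0.27 TPM, and Csf3 and Csf2 were listed at 0 in all 8. Of 10 inhibitors of granule proteases, Slpi, which inhibits elastase and cathepsin G, was at 8.63 TPM against at most 0.46 TPM, Serpinb1a, which inhibits elastase, cathepsin G and proteinase 3, at 26.29 TPM against at most 5.84 TPM, and Serpina3n had the smallest ratio, at 1.64 TPM.

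**Figure D3:**
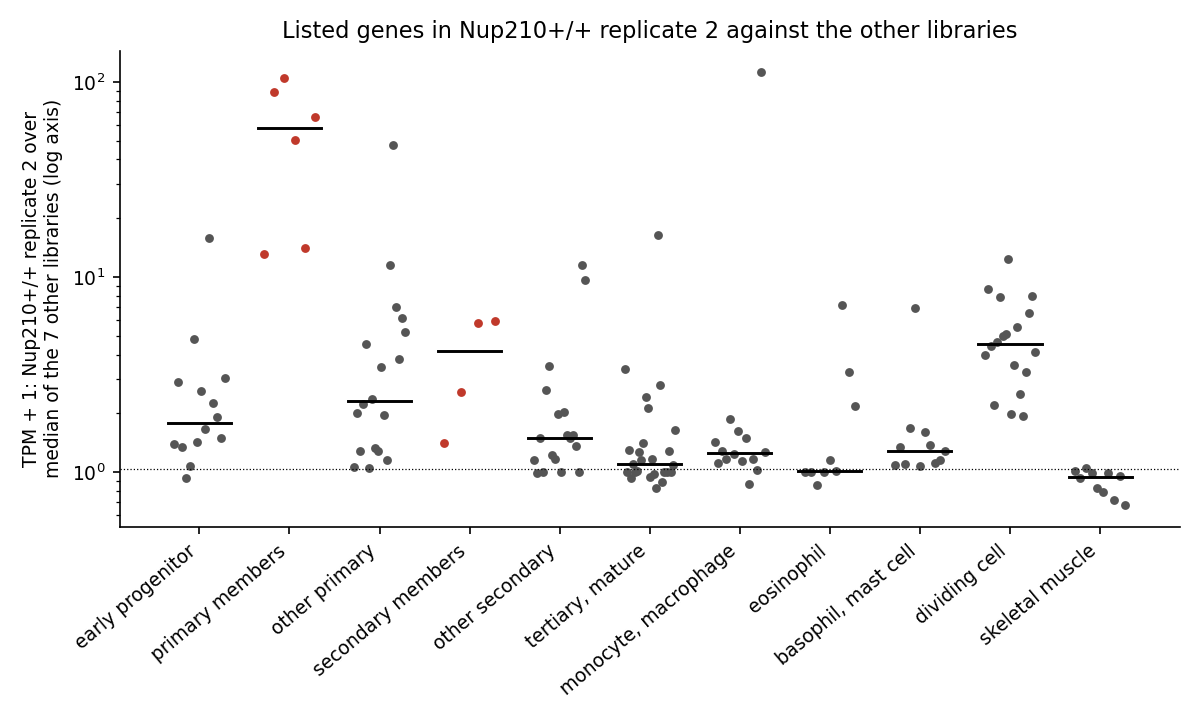
Ratio of TPM + 1 in Nup210+/+ replicate 2 to the median of the 7 other libraries, on a log axis, with 1 point per listed gene, the median of each list as a bar, the members in red and the median of all genes tested (1.04) as a dotted line. The median was 58.2 for the primary members, 4.17 for the secondary members, 4.56 for genes of dividing cells and 0.947 for genes of skeletal muscle.

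Markers of other cells were examined beside these values, and their part in them was not tested. Of all genes with a mean of at least 0.5 TPM, 20.7% were highest in Nup210+/+ replicate 2. Ly6c2, a surface protein of monocytes and their precursors, reached 228.1 TPM in Nup210+/+ replicate 2, where the other libraries had 0.19 to 2.35 TPM, but it was the 1 gene of 14 on the monocyte and macrophage list that was highest there. The macrophage genes Csf1r, C1qa, C1qb and C1qc and 8 others of that list were highest in Nup210+/+ replicate 3. The list summed to 396.43 TPM in Nup210+/+ replicate 2, of which Ly6c2 was the greater part, to 132.26 to 288.62 TPM in the other Nup210+/+ libraries and to 114.76 to 132.85 TPM in Nup210-/-. Of 18 genes of dividing cells, 18 were highest in Nup210+/+ replicate 2, where they summed to 172.12 TPM, against 38.25 to 40.34 TPM in the other Nup210+/+ and 32.47 to 36.83 TPM in the Nup210-/- libraries. Cdk1 had the largest ratio of these, 12.4, and Pcna the smallest, 1.95.

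For the next lists, the share of all genes above 0 TPM in any library that were highest in Nup210+/+ replicate 2 was 18.4%. Of 9 eosinophil genes 4 were highest there, led by Prg2 at 6.18 TPM against at most 0.15 TPM. Ear2 was lowest by ratio, and Ear1 and Ear6 were listed at 0 in all 8. The list summed to 12.51 TPM, against 3.44 to 5.09 and 1.98 to 4.15 TPM. Of 11 genes of basophils and mast cells 4 were highest there, led by Hdc at 10.31 TPM against at most 1.09 TPM, with Mcpt4 lowest by ratio, and the sum of 71.9 TPM lay between 47.94 and 77.83 TPM of the other Nup210+/+ libraries. Of 13 red cell genes 7 were highest there. The 13 together summed to 5385 TPM, against 1268 to 3123 TPM in the other Nup210+/+ and 941.75 to 2749 TPM in the Nup210-/- libraries. Alas2 was at 19.57 TPM against 2.44 to 11.45 TPM elsewhere, and Tfrc at 79.53 TPM against at most 60.9 TPM. Klf1 and Rhag, which mark red cell precursors, were not highest there, at 0.13 TPM and listed at 0. Hba-a1 had the largest and Car1 the smallest ratio. Of 11 B cell precursor genes 4 were highest there. Cd79b had the largest ratio of the list and Ebf1, which was higher elsewhere, the smallest, and Rag1 and Rag2 were listed at 0 in all 8. Of 10 T cell genes Lck and Cd4 were highest there, while Trbc2, with the smallest ratio, was listed at 0. Of 7 platelet genes 0 were highest there, with ratios to the median of the others from 0.709 for Itga2b to 1.47 for Ppbp. In bulk tissue, fewer cells of a type and less RNA per cell cannot be told apart.

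The genes with the pattern most like Elane were looked up across the whole table, by the ratio of TPM + 1 in Nup210+/+ replicate 2 to the highest of the other 7 libraries. In order they were Elane, Ctsg, Ly6c2, Prtn3, Mpo, Plac8, Snord80, I830127L07Rik, Emb and Myb, with ratios from 76.9 for Elane to 14.2 for Myb. Ms4a3 came next at rank 11 and Cebpe at rank 14, while S100a8, S100a9, Ngp and Camp stood at ranks 70, 72, 190 and 1481. Snord80 (ENSMUSG00000065735, 24.48 TPM and listed at 0 elsewhere) is a short snoRNA, for which TPM is less certain, and Ly6c2 has a close relative, Ly6c1, which was at 90.58 TPM in that library within 84.43 to 150.51 TPM elsewhere. Emb, the membrane glycoprotein embigin, was at 62.98 TPM against at most 3.1 TPM, and I830127L07Rik, a transcribed pseudogene, at 28.65 TPM against at most 0.32 TPM.

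To ask whether the genotypes differed, log2(scaled TPM + 1) was compared with limma over all genes with a mean of at least 0.5 TPM. With all 8 libraries, 8 of the 10 genes passed this minimum, of which Elane, Mpo, Prtn3, Ctsg, Ms4a3 and Cebpe passed only through Nup210+/+ replicate 2, so their estimates describe that library. The log2 fold change (Nup210-/- minus Nup210+/+) was -1.61 for Elane (SE 1.35), -1.83 for Ctsg (SE 1.29), -1.42 for Prtn3 (SE 1.26) and -1.48 for Mpo (SE 1.10). It was -0.94 for Ms4a3 (SE 0.778), -0.87 for Cebpe (SE 0.765), -0.36 for S100a8 (SE 0.551) and -0.58 for S100a9 (SE 0.576). No estimate was as large as 2 standard errors. At a Benjamini-Hochberg adjusted p of 0.05 in limma, 0 of the 8 genes were called, as were 0.112% of the 14229 genes tested (0.0492% higher and 0.0633% lower in Nup210-/-). At an unadjusted p of 0.05 the count was 0 of 8 against 14.2% of all genes, and 0 of 8 had genotypes without overlap against 9.38%. All 8 estimates were lower in Nup210-/-, as were 51.3% of all, and nothing is read from this because 1 library set them.

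Without Nup210+/+ replicate 2, which leaves 4 Nup210-/- and 3 Nup210+/+ libraries, 2 of the 10 genes had a mean of at least 0.5 TPM. S100a8 was 0.8 ± 0.361 TPM in Nup210-/- (SD, n = 4) and 0.497 ± 0.225 TPM in Nup210+/+ (SD, n = 3), and its log2 fold change was 0.28 (SE 0.204, limma adjusted p = 0.612). S100a9 was 0.535 ± 0.321 TPM in Nup210-/- (SD, n = 4) and 0.56 ± 0.587 TPM in Nup210+/+ (SD, n = 3). Its log2 fold change was 0.071 (SE 0.270, limma adjusted p = 0.941). An exact permutation test, two-sided and over all 35 ways to label the libraries, gave p = 0.286 for S100a8 and p = 0.857 for S100a9, where no p below 0.0571 was possible. The log2 fold changes of both thus turned when 1 library was left out, whereas the mean TPM of S100a9 stayed lower in Nup210-/-. The values of the genotypes overlapped for both genes. Limma called 0 of these 2 genes at an adjusted p of 0.05 and 0 at an unadjusted p of 0.05, against 0.0142% and 13% of the 14090 genes tested.

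With no minimum on TPM, 8 of the 10 genes were above 0 somewhere among these 7 libraries, and Ms4a3 and Ngp in none. Ctsg alone had an unadjusted p under 0.05 in limma (log2 fold change -0.25, SE 0.101, adjusted p = 0.476), on levels of at most 0.48 TPM. Elane (0.036), Prtn3 (0.11) and Cebpe (0.05) had small positive and Mpo (-0.14) and Camp (-0.07) small negative log2 fold changes.

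**Figure D4:**
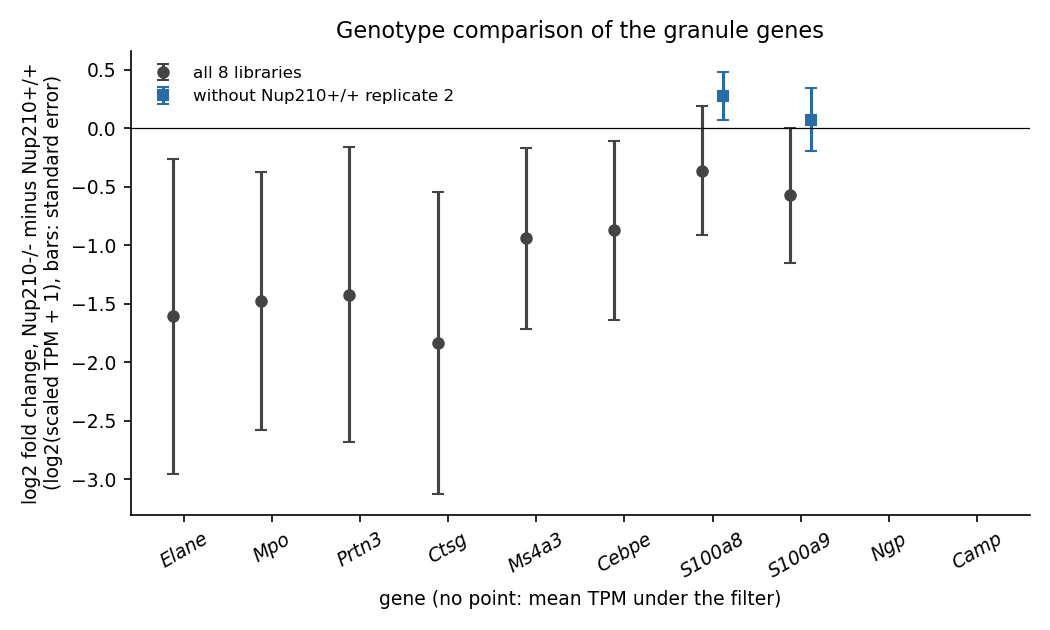
Log2 fold change (Nup210-/- minus Nup210+/+) of log2(scaled TPM + 1) with its standard error, for the genes with a mean of at least 0.5 TPM, in all 8 libraries (circles) and without Nup210+/+ replicate 2 (squares). Estimates from 8 libraries run from -0.36 to -1.83 with wide errors, and without that library S100a8 and S100a9 remain, at 0.28 and 0.071.

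The lists of other genes of the lineage were compared between the genotypes in the same fits. In the fit of all 8 libraries, 17 further primary granule genes, 12 progenitor genes, 8 further secondary granule genes, 7 tertiary and mature genes, 12 factors, 5 attractants and 4 inhibitors were tested, and limma called 0 of each list in either direction at an adjusted p of 0.05 and 2, 2, 3, 1, 2, 1 and 0 at an unadjusted p of 0.05. Their median log2 fold changes were -0.40, -0.41, -0.60, -0.46, -0.19, -0.11 and -0.43, where the median of all genes was -0.0061. Without Nup210+/+ replicate 2, the medians were -0.069, -0.11, -0.43, -0.19, -0.030, -0.11 and -0.12 over 13, 9, 5, 6, 9, 5 and 3 genes, the median of all genes was 0.0031, and again 0 were called in each list, with 3, 2, 2, 0, 2, 0 and 0 at an unadjusted p of 0.05. The median of the monocyte and macrophage list was -0.50 with and -0.45 without that library, and that of the dividing cell list -0.64 and -0.065. Of 13 monocyte and macrophage genes tested, limma called 0 at an adjusted p of 0.05 in either fit, while 8 had an unadjusted p under 0.05 in each, against 14.2% and 13% of all genes, and the 13 estimates were lower in Nup210-/- in both. On the remaining lists 1 gene was called with all libraries, the platelet chemokine Pf4, which was lower in Nup210-/-, and 0 without that library.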

How the data were processed

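PolyA RNA was read from 1 end (directional libraries). Per the paper's methods and the submitters' processing notes, the authors trimmed reads with cutadapt 2.3, aligned them to mm10 with STAR 2.7.0d and quantified genes with RSEM 1.3.1 and Ensembl annotations. The deposited values are TPM per gene and library, which sum to 1000000 within rounding. Counts and depth are not given, so no counting interval was computed, and the DESeq2 test of the authors was not repeated.

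TPM were divided by the median of ratios over the 15225 genes above 0 in all libraries (15308 without Nup210+/+ replicate 2). Log2(scaled TPM + 1) of genes averaging 0.5 TPM or more was fitted with limma 3.58.1 in R 4.3.3 (intensity trend, genotype as the only term, Benjamini-Hochberg adjustment). The fits were also run on simulated data with independent normal errors. Those data had no library that stands apart and no floor at 0, so they cannot vouch for the fits of these genes. Fold changes on this scale understate changes of low genes. The members and lists were chosen with earlier results of these data known. Named were all members, the genes of a list that passed limma, the genes of each list with the largest and smallest ratio in Nup210+/+ replicate 2, and the 10 genes with the largest ratio overall; others were chosen after their values were seen. A gene that this rule would name is not reported here. Alternatives were other pseudocounts, filters, scalings, variance models and library weights, the replicate block and each library left out.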

Additional observations from a re-analysis of the deposited data

Results flagged for a closer look

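Within each genotype, the gap of the highest or lowest library to its nearest neighbor was divided by the range of the 4 libraries. Of 23 such groups of values for the 10 genes, their sums and the ratio of the sums, 13 had a gap above 0.829. For normally distributed, separate groups chance gives about 1 in 20, or 1.15 groups. That rate does not hold here, because a group with all but 1 library listed at 0 always has the largest possible gap. The sums also repeat the genes. Of these 13, 12 came from Nup210+/+ replicate 2, and the members were chosen with its values known, so the number is not evidence of its own. In that library the values were 116.69 TPM for Elane, 105.06 TPM for Ctsg, 84.47 TPM for Prtn3, 49.2 TPM for Mpo, 13.15 TPM for Cebpe, 13.12 TPM for Ms4a3, 8.03 TPM for S100a8, 7.98 TPM for S100a9 and 1.56 TPM for Ngp. The primary sum was 381.69 TPM, the secondary sum 17.98 TPM and their ratio 21.2. Camp, at 0.41 TPM there and 0.16 TPM in Nup210+/+ replicate 1, had a gap of 0.61 of the range and was not among them.

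The remaining value was Mpo in Nup210-/- replicate 4, at 0.4 TPM where the other Nup210-/- libraries were listed at 0, which alone sets its gap. Elane (0.41 TPM) and Prtn3 (0.66 TPM) were also highest of their genotype in that library. The other primary genes were not: Ctsg and Ms4a3 were listed at 0 there, and Cebpe was at 0.1 TPM against 0.18 TPM in Nup210-/- replicate 3.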

How the results depend on the processing

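Limma called 0 of the genes it tested at an adjusted p of 0.05 under any of the 19 alternatives to the fit of all libraries, which tested 8 to 10 of the 10 genes, or 2 without Nup210+/+ replicate 2. It also called 0 under the 15 alternatives to the fit without that library, which tested 1 or 2 genes, or 8 with no filter. At an unadjusted p of 0.05 the exception was Ctsg, with no filter in the latter. In the fit of all libraries, 144 recomputed log2 fold changes of the genes kept their direction. The 2 that turned were S100a8 (0.28) and S100a9 (0.071), without Nup210+/+ replicate 2. The 6 primary genes were not tested without that library, so their kept direction rests on it. With no filter and without it, Elane (0.036), Prtn3 (0.11) and Cebpe (0.05) were higher in Nup210-/-, and Ctsg (-0.25) and Mpo (-0.14) lower. In the fit without that library S100a9 turned (-0.20) when Nup210+/+ replicate 4 was left out too. Leaving out 1 library, S100a8 ranged from -0.66 to 0.28 and S100a9 from -0.97 to 0.071 in the former fit, and S100a9 from -0.20 to 0.18 in the latter.

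The number of genes called of all genes moved more, and the cause was not tested. From 16 with all libraries it went to 1 with no filter, 0 with a mean TPM of at least 0.1, 27 with a mean of at least 1, 0 with upper-quartile scaling, 0 without the trend, 84 with library weights and 0 with the replicate block, and leaving out 1 library it ranged from 0 to 10. Where the count was 0, limma gave 2244, 2071, 1952 and 1850 genes at an unadjusted p of 0.05, in that order. From 2 without Nup210+/+ replicate 2 it went to 8 with a pseudocount of 0.1, 1 with no filter, 15 with TPM as deposited, 1 with upper-quartile scaling, 0 without the trend, 310 with library weights and 0 with the replicate block (the last 2 added after the data were seen), and leaving out 1 more library it ranged from 0 to 12. Without the trend and with the block, 1806 and 1626 genes had an unadjusted p under 0.05. The labels do not say whether same-numbered mice were paired. Correlations of the deviations of same-numbered libraries ran from -0.0329 to 0.0857, and those of differently numbered libraries from -0.0814 to 0.1033. The replicate block called 0 genes in both fits, which cannot show whether the mice were paired. Because depth is unknown and 5 to 7 of the other libraries list Mpo, Ms4a3, Ngp and Camp at 0, low levels of these genes carry an error that cannot be given.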
